A study of Drosophila melanogaster with 36 samples.

Results

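The genes described here entered the deposited expression tables of early Drosophila melanogaster embryos after the 0-1h collection. They are not listed at 0-1h, they are listed at 2-3h, and their mean level in the 3 wild-type pool 3 libraries of 2-3h reached 10 TPM, a level per library that is corrected for transcript length. Genes with symbols of long non-coding, antisense, small nucleolar, small nuclear and Cajal-body RNAs were left out, which removed 25 of the 155 genes that passed the other criteria. The remaining 130 genes are a small share of the 10226 genes listed at any of the 3 times and of the 2420 listed at 2-3h but not at 0-1h. They were chosen by their measured level in those 3 libraries. A table holds a gene only where none of the 12 libraries collected at that time is at 0, so a gene missing at 0-1h may still have had reads in part of them.

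RNA was taken from 2 pooled parts of a 15 to 45% sucrose gradient, called pool 1 and pool 3, after lysis with cycloheximide, which holds ribosomes on their messages. The position of either pool along the gradient is not stated in the labels. Control embryos came from w1118 flies described as the stock used before injection, and are called wild type here. The compared embryos carried an orb2 allele without its ZZ domain, written orb2-delta-zz, on an otherwise unstated background. Both stocks were kept at 25 °C, and embryos were collected at 0-1h, 1-2h and 2-3h. Genotype, time and pool made 12 groups of 3 replicates, or 36 libraries in all. Orb2 is a CPEB-family RNA-binding protein that acts on the translation of its target messages, and its ZZ domain is a zinc-binding region at the C-terminal end.

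The embryo starts with RNA and protein that its mother loaded into the egg. During the maternal-to-zygotic transition those maternal messages are degraded and the embryo's own genome is switched on, in a minor wave and then, around cellularisation, in a major wave that brings on patterning, cell-fate and cell-adhesion genes. Many of the earliest genes switched on have short primary transcripts. Genes of differentiated tissue, such as contractile proteins of muscle and structural proteins of cuticle, are switched on in much older embryos.

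Library totals ran from 21558822 to 47287818 normalized counts with a median of 36015964, and nothing in the labels says that replicates came from separate cultures, so p-values measure only the spread between these samples. Reads of orb2 itself were present in every library: at 2-3h it had 277.39 to 646.72 normalized counts in wild type and 579.57 to 1290.9 in orb2-delta-zz, and at 1-2h 1287.2 to 2188.4 and 941.71 to 1853.6. A gene total cannot show the loss of 1 domain. Some gradients stood apart from the others of their group. Wild-type replicate 2 at 2-3h and 1-2h, orb2-delta-zz replicate 2 at 2-3h and orb2-delta-zz replicate 3 at 1-2h held more RNA of muscle, cuticle and other late genes, and results are given with and without them. In RNA from whole embryos, fewer cells of a type and less RNA per cell cannot be told apart.

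The 130 genes fell into 2 large sets by how many of the 3 libraries that chose them reached the threshold, and what follows in the next paragraphs is a description of the choosing values, with no test. In 55 genes each of the 3 wild-type pool 3 libraries of 2-3h reached 10 TPM, and these are called the evenly read genes. In 60 genes replicate 2 alone reached 10 TPM, and these are called the replicate 2 genes. The other 15 genes lay in between. The median TPM of the evenly read genes was 23.3, 19.5 and 24.1 in replicates 1, 2 and 3. For the replicate 2 genes it was 2.33, 49.4 and 0.327. Replicate 2 exceeded the mean of replicates 1 and 3 more than 10-fold in 46 of these 60 genes and more than 100-fold in 17 of them, against 0 of the 55 evenly read genes at 10-fold. One gene of the 60, bru2, which encodes a Bruno-family RNA-binding protein, was there only by the cutoff, with 9.29, 11.7 and 9.71 TPM.

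**Figure D1:**
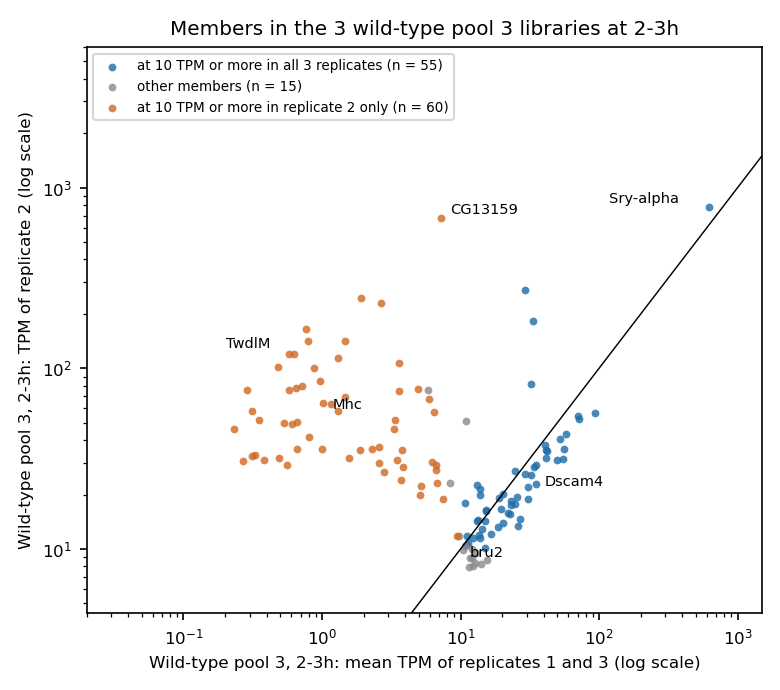
Level of each of the 130 genes in wild-type pool 3 at 2-3h, with the mean TPM of replicates 1 and 3 on the horizontal axis and the TPM of replicate 2 on the vertical axis (both log scales), one point per gene. Of the 55 evenly read genes 52 lie within 2-fold of equality and 3 above it, by up to 9.22-fold, and the 60 replicate 2 genes lie above it, with a median excess of 53.5-fold.

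The highest level belonged to Sry-alpha, a cellularisation gene whose product organises the actin network of the invaginating membrane, at 676 ± 103 TPM (SD, n = 3). It lies at 3R:30039719-30043071 on the plus strand (BDGP6, Ensembl release 115) and overlaps Sry-beta on the same strand, so reads may be split between them. The second highest was CG13159, a replicate 2 gene with 7.95, 680 and 6.60 TPM. Just inside the threshold were bru2 at 10.2 TPM, Msr-110 at 10.1 TPM and CG43332 at 10.03 TPM, and just outside were CG8745 at 9.92 TPM, CG3699 at 9.75 TPM and Dred at 9.68 TPM. All 130 genes had a mean of at least 10 normalized counts at 2-3h and were tested among 9554 genes. At 1-2h, 91 were listed and all 91 were tested among 8294 genes, while 39 were not listed there: 7 evenly read genes, 28 replicate 2 genes and 4 of those in between.

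**Figure D2:**
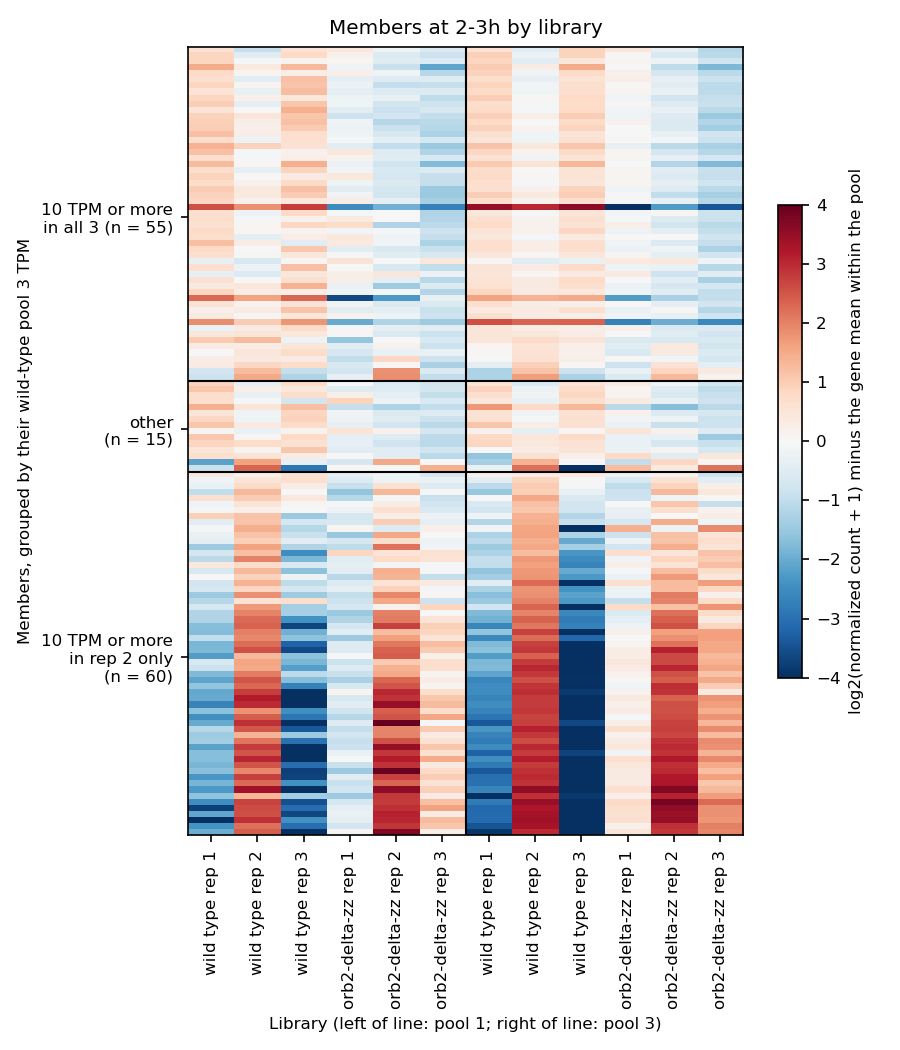
Each row is 1 of the 130 genes and each column 1 of the 12 libraries of 2-3h. Colour gives log2(normalized count + 1) minus the gene's mean within the pool, with values beyond 4 drawn as 4. Most replicate 2 genes are highest in replicate 2 of both genotypes and both pools, in orb2-delta-zz 51 of the 60 in pool 3 and 56 in pool 1, and the evenly read genes are lower in most orb2-delta-zz columns.

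Every gene that the genotype test called in pool 1 at 2-3h was lower in orb2-delta-zz than in wild type, among them Abd-B, mirr, eya, 3 Enhancer of split genes, ds and Cyp310a1. The test called 31 of the 130 genes, all of them lower, and among all 9554 genes 23.9% were called, 14.4% higher and 9.48% lower. The called genes were 23 of the 55 evenly read genes, 7 of the 15 in between and bru2. The sets were defined by the wild-type pool 3 replicates, whose spread also enters this test, so the split of calls between the sets is not read as a result. The 3 orb2-delta-zz libraries lay below the 3 wild-type ones without overlap for 40 of the 130 genes, against 16.5% of all genes, and above them for 0, against 20.3%. The median log2 difference was -0.95 over the evenly read genes, -0.99 over those in between and 1.08 over the replicate 2 genes, beside -0.03 over all genes tested. Wild-type pool 1 came from the same gradients as the pool 3 libraries that chose the genes, so high replicates are shared between the choice and the test. The choice also asked for a high level in wild type and made no such demand on orb2-delta-zz, which favours lower calls. The shared direction of the calls is therefore not read as a result apart from the choice. The count was 9, 71 and 11 without wild-type replicates 1, 2 and 3, and 17 and 12 without orb2-delta-zz replicates 2 and 3. Here and below, no share of all genes is given for fits without a single gradient, except that without wild-type replicate 2 at 2-3h. Changes in those counts are therefore not read as results about these genes. With the replicate number as a block the count was 54, 51 lower and 3 higher, and 41.3% of all genes were called, 21.5% higher and 19.8% lower. Of the 31 calls, 8 held whichever gradient was left out.

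Without wild-type replicate 2, the 71 called genes were 42 lower and 29 higher, and all 29 were replicate 2 genes; their low values in the remaining wild-type libraries were used to define that set, so nothing is read from that direction. Among all genes 15.7% were then called higher and 17.8% lower, and 29 of the 31 genes called with every library were among the 42. Over the evenly read genes the number called lower ranged from 7, without wild-type replicate 1, to 30, without wild-type replicate 2, and 50 to 53 of the 55 stayed below 0 whichever gradient was left out. The choice of genotype for the threshold mattered. Of 117 genes with 10 TPM in orb2-delta-zz pool 3 instead, 100 were shared and 14 were called, where 23.9% of all genes were called with every library. Their median log2 difference was 0.35, beside -0.44 over the 130 genes.

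At 1-2h the same comparison used libraries that had no part in the choice. The genes themselves were still chosen on wild type, which may favour lower values in orb2-delta-zz here too. In pool 1, 16 of the 91 listed genes were called and all were lower in orb2-delta-zz, against 11.4% of all genes called (6.63% higher, 4.80% lower). In pool 3, 22 of 91 were called and all were lower, against 8.57% of all genes (3.53% higher, 5.04% lower). Of the 48 evenly read genes listed at 1-2h, 13 were called in pool 1 and 20 in pool 3, and 45 and 46 lay below 0. Their median log2 differences were -1.09 and -1.37, beside 0.11 and 0.07 over all genes tested. The groups did not overlap, with orb2-delta-zz lower, for 32 genes in pool 1 and 44 in pool 3, against 10.02% and 11.8% of all genes. Of the 48 evenly read genes these were 26 and 35. In each pool 0 genes lay above without overlap, against 20.1% and 16.8%. Wild-type replicate 2 was the highest of its group for all 32 replicate 2 genes listed, so nothing is read from the 0 for them.

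Single gradients moved those counts. In pool 1 the count was 8 without wild-type replicate 1 and 10 without orb2-delta-zz replicate 1 or 2. In pool 3 it was 8 without wild-type replicate 1, 33 without wild-type replicate 2, and 12, 13 and 14 without orb2-delta-zz replicates 1, 2 and 3. These counts hold calls in both directions, and no share of all genes is given for these fits. With single gradients left out, pool 3 had at most 19 lower and 15 higher calls, and pool 1 at most 16 and 4. All of the higher calls were replicate 2 genes. With both gradients that stood apart at 1-2h left out together, 12 genes were called lower and 3 higher in pool 1, and 19 lower and 14 higher in pool 3; of all genes 9.94% were then called in pool 1 (6.08% higher, 3.85% lower) and 8.24% in pool 3 (3.63% higher, 4.61% lower). Of the 16 and 22 calls made with every library, 7 and 8 held whichever gradient was left out. On log2(TPM + 1) the pool 1 count fell to 3 and the pool 3 count was 32, and no share of all genes is given on that scale. With the genes chosen on orb2-delta-zz pool 3 instead, 78 were listed at 1-2h. Their counts were 14 and 20, where 11.4% and 8.57% of all genes were called with every library. Their median log2 differences were -0.20 and 0.14. Across the 3 genotype tests 40 of the 91 genes were called in at least 1, 8 were called in all 3, and 56 lay below 0 in all 3. The 8 genes were Cyp310a1, mirr, ltl, E(spl)mdelta-HLH, Esp, Abd-B, eya and CG14346.

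**Figure D3:**
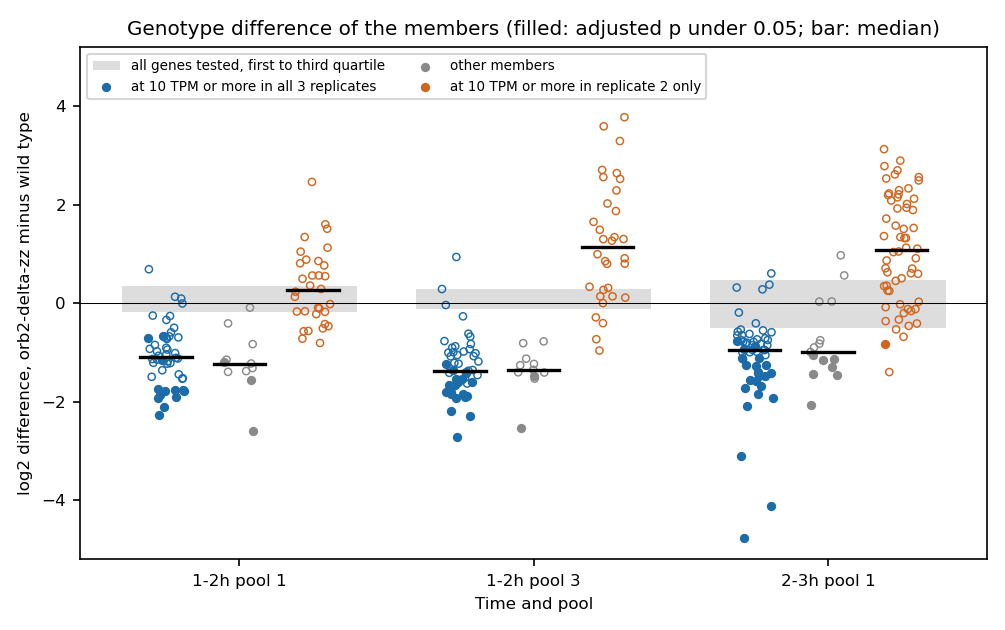
log2 difference, orb2-delta-zz minus wild type, for each gene in pool 1 at 2-3h and in both pools at 1-2h, split by how evenly the gene was read. Filled points were called at an adjusted p under 0.05, open points were not, black lines are medians and grey bands are the quartile range of all genes tested. Medians of the evenly read genes are -0.95, -1.09 and -1.37.

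Abd-B, the most posterior Hox gene, lies at 3R:16927212-16972236 on the minus strand and had 20.5 ± 4.15 TPM (SD, n = 3) in wild-type pool 3 at 2-3h. In pool 1 at 2-3h it had 587, 402 and 1082 normalized counts in wild-type replicates 1, 2 and 3 and 306, 224 and 260 in orb2-delta-zz. The 3 orb2-delta-zz values lay below all 3 wild-type ones, with a log2 difference of -1.28 ± 0.36 (SE, limma adjusted p = 0.024). At 1-2h pool 1 held 63.6, 126 and 55.6 normalized counts in wild type and 20.3, 23.9 and 22.5 in orb2-delta-zz, again without overlap, a log2 difference of -1.74 ± 0.38 (limma adjusted p = 0.0093). That call held whichever gradient was left out, while the one at 2-3h was lost without wild-type replicate 1 or 3 or orb2-delta-zz replicate 2 or 3. Of the 8 Hox genes tested in pool 1, 6 were called lower at 2-3h and 4 at 1-2h, and 0 were called higher. Of all genes 9.48% and 4.80% were called lower, and 14.4% and 6.63% higher. With a single gradient left out the Hox counts were 0 to 8 and 3 to 4. This list and those below were chosen with earlier results of these data known.

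The Iroquois homeobox gene mirr lies at 3L:12693639-12710249 on the plus strand and acts in patterning of the ectoderm and head. Its pool 1 values at 2-3h were 1423, 848 and 1738 normalized counts in wild type and 663, 407 and 410 in orb2-delta-zz. All orb2-delta-zz libraries were lower, by a log2 difference of -1.41 ± 0.35 (limma adjusted p = 0.015), and the call was lost without wild-type replicate 1 or 3 or orb2-delta-zz replicate 2 or 3. In pool 3 at 1-2h it had 463, 762 and 446 against 179, 160 and 217 normalized counts, a log2 difference of -1.55 ± 0.27 (limma adjusted p = 0.0021), and that call was kept whichever gradient was left out.

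The eye-determination cofactor eya had 635, 389 and 744 normalized counts in pool 1 at 2-3h of wild type and 299, 147 and 155 in orb2-delta-zz. Every orb2-delta-zz library was below every wild-type one, with a log2 difference of -1.58 ± 0.39 (limma adjusted p = 0.014), a call lost without the same 4 gradients as that of mirr. The Six-family genes Optix and Six4 were nearer the threshold. Optix had 203, 132 and 264 against 131, 96.0 and 100 normalized counts, where the groups did not overlap and the test did not call it (-0.82 ± 0.32, limma adjusted p = 0.078, or 0.018 with the replicate block). With that block 41.3% of all genes were called. Six4, named after its values were seen, was called in pool 1 at 1-2h at -1.56 ± 0.40 (limma adjusted p = 0.022), a call that held only without wild-type replicate 3. At 2-3h its log2 difference was -0.76 ± 0.40 (limma adjusted p = 0.19, or 0.071 with the replicate block), and the change between the times was not tested.

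Other called regulators at 2-3h in pool 1 were nerfin-1, a zinc-finger gene of early neuroblasts, at -1.13, C15, a homeobox gene of the amnioserosa, at -1.16, kn, the COE-family factor of the head and muscle lineages, at -1.05, and croc, a forkhead gene of the head, at -0.76 on the log2 scale (limma adjusted p = 0.014, 0.039, 0.039 and 0.041). Each of these 4 calls was lost when some single gradient was left out. The odd-skipped relative sob missed the threshold at 2-3h (-1.14, limma adjusted p = 0.053, or 0.0099 with the replicate block) and passed it in pool 3 at 1-2h (-1.66, limma adjusted p = 0.022), where the call was lost without wild-type replicate 1 or any 1 of the orb2-delta-zz replicates. The POU-domain gene vvl, which acts in trachea and nervous system, was not called in any of the 3 tests, with log2 differences of -0.69, -0.72 and -0.41 and adjusted limma p of 0.21, 0.66 and 0.89; with the replicate block the first was 0.044. Among 36 proneural and neuroectoderm transcription factors tested in pool 1 at 2-3h, 20 were called lower and 0 higher, with a median log2 difference of -1.13. Of all genes 9.48% were called lower and 14.4% higher there. Of these 36 genes eya, Optix and nerfin-1 are among the 130. Among 13 gap and head gap genes, of which croc is among the 130, 11 were called lower and 1 higher. Leaving out single gradients gave 5 to 27 and 3 to 12 lower calls for these lists, and kept their medians between -1.35 and -0.74.

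Notch-response genes of the Enhancer of split complex were among the lowest. E(spl)mgamma-HLH and E(spl)mdelta-HLH encode basic helix-loop-helix repressors that Notch signalling switches on, and E(spl)m2-BFM encodes a protein of the Bearded family, whose members act on Notch signalling. All 3 are single-exon genes on 3R, at 25999851-26000761 and 25997621-25998633 on the plus strand and 26016514-26017470 on the minus strand.

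E(spl)mgamma-HLH had 3337, 1568 and 2925 normalized counts in pool 1 at 2-3h of wild type and 1095, 640 and 278 in orb2-delta-zz. The groups did not overlap, and the log2 difference was -2.10 ± 0.54 (limma adjusted p = 0.016). E(spl)mdelta-HLH had 771, 333 and 851 against 271, 182 and 94.4 normalized counts, again without overlap, at -1.84 ± 0.50 (limma adjusted p = 0.022). E(spl)m2-BFM had 1983, 1276 and 2212 against 709, 602 and 358 normalized counts. Its difference of -1.73 ± 0.33 (limma adjusted p = 0.0041) was called whichever gradient was left out, which was not so for the other 2. At 1-2h all 3 were called lower in pool 3, at -2.19, -1.85 and -1.81 on the log2 scale (limma adjusted p = 0.0092, 0.027 and 0.043), and in pool 1 only E(spl)mdelta-HLH was called (-1.93, limma adjusted p = 0.019). The E(spl)m2-BFM call at 1-2h was lost whichever of the 6 gradients was left out. In the wider list of 23 Notch, Enhancer of split and Bearded genes, 11 were called lower in pool 1 at 2-3h, 12 at 1-2h and 15 in pool 3 at 1-2h, with 0 called higher. Of all genes 9.48%, 4.80% and 5.04% were called lower, and 14.4%, 6.63% and 3.53% higher. Without a single gradient the lower counts of this list were 2 to 14, 6 to 13 and 7 to 14.

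Of the genes for signalling ligands and receptors, Pvf3, a PDGF and VEGF-related ligand that guides blood cells, had 452, 266 and 559 normalized counts in pool 1 at 2-3h of wild type and 198, 172 and 142 in orb2-delta-zz. The groups did not overlap and the log2 difference was -1.26 ± 0.33 (limma adjusted p = 0.017), a call lost without wild-type replicate 1 or 3 or orb2-delta-zz replicate 2. For pyr, an FGF8-like ligand of the Heartless receptor, the values were 497, 297 and 370 against 338, 232 and 202 normalized counts. Those ranges overlapped, while within each replicate number the orb2-delta-zz value was the lower. The log2 difference of -0.59 ± 0.29 was not called (limma adjusted p = 0.16) and was called with the replicate block (limma adjusted p = 0.03). NetB, a secreted Netrin that guides axons, showed no call in either direction, with 219, 176 and 232 against 308, 237 and 131 normalized counts (0.03 ± 0.33, limma adjusted p = 0.96, or 0.93 with the replicate block).

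Toll-7, a Toll-family receptor, was called lower in pool 1 at 2-3h at -1.11 ± 0.31 on the log2 scale (limma adjusted p = 0.025) and not at 1-2h, and its call was lost without wild-type replicate 1 or 3 or orb2-delta-zz replicate 3. The serotonin receptor gene 5-HT2A, which is expressed in a pair-rule pattern in the early embryo, showed calls at 1-2h. It had 53.4, 53.8 and 59.2 normalized counts in pool 1 of wild type and 13.8, 8.45 and 29.9 in orb2-delta-zz, a log2 difference of -1.79 ± 0.39 (limma adjusted p = 0.0099), and in pool 3 the difference was -2.29 (limma adjusted p = 0.002). At 2-3h its pool 1 difference was -0.80 ± 0.44 (limma adjusted p = 0.19, or 0.052 with the replicate block). 5-HT2A, phtm, Esp and Nepl4 are named here after their values were seen. Of 31 EGFR and other receptor-signalling genes, 12 were called lower and 2 higher in pool 1 at 2-3h, beside 9.48% and 14.4% of all genes. Without a single gradient 5 to 16 of them were lower.

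The large cadherin gene ds, part of the Fat and Dachsous planar-polarity system, had 488, 353 and 553 normalized counts in pool 1 at 2-3h of wild type and 144, 151 and 130 in orb2-delta-zz. All orb2-delta-zz libraries were lower, by -1.68 ± 0.32 on the log2 scale (limma adjusted p = 0.0042), a call kept whichever gradient was left out. The cadherin gene Cad74A and the immunoglobulin-superfamily gene side-V were not called at 2-3h in pool 1 (limma adjusted p = 0.098 and 0.079, or 0.036 and 0.037 with the replicate block) and were called at 1-2h in both pools. Both side-V calls held whichever gradient was left out, and both Cad74A calls were lost without wild-type replicate 1 or 2 or orb2-delta-zz replicate 2 or 3. In pool 1 at 1-2h side-V had 50.1, 70.2 and 41.4 normalized counts in wild type and 15.8, 8.78 and 10.5 in orb2-delta-zz. That log2 difference of -2.12 ± 0.31 had a limma adjusted p = 0.00063. Across 47 adhesion and epithelial surface genes, 21 were called lower and 0 higher in pool 1 at 2-3h, beside 9.48% and 14.4% of all genes. Without a single gradient 4 to 30 were called lower.

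The cytochrome P450 gene Cyp310a1, on the list of mesoderm and ventral furrow genes, was called in all 3 tests and under every left-out gradient. It lies at 2L:18651058-18653010 on the minus strand. In pool 1 at 2-3h it had 661, 479 and 375 normalized counts in wild type and 187, 127 and 88.3 in orb2-delta-zz, a log2 difference of -1.94 ± 0.34 (limma adjusted p = 0.0031). In pool 1 at 1-2h it had 94.3, 91.8 and 77.8 against 13.8, 21.6 and 17.2 normalized counts, a difference of -2.28 ± 0.31 (limma adjusted p = 0.00039). In pool 3 at 1-2h the values were 281, 232 and 189 against 22.2, 43.0 and 40.9 normalized counts, a difference of -2.73 ± 0.31 (limma adjusted p = 8.8e-05). At neither time did a wild-type library overlap an orb2-delta-zz library. The direction was not shared by detoxification genes at large. Of 20 cytochrome P450, glutathione and glucuronosyl transferase genes tested in pool 1 at 2-3h, 6 were called higher and 3 lower, beside 14.4% and 9.48% of all genes. Leaving out single gradients gave 4 to 9 higher and 1 to 3 lower.

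**Figure D4:**
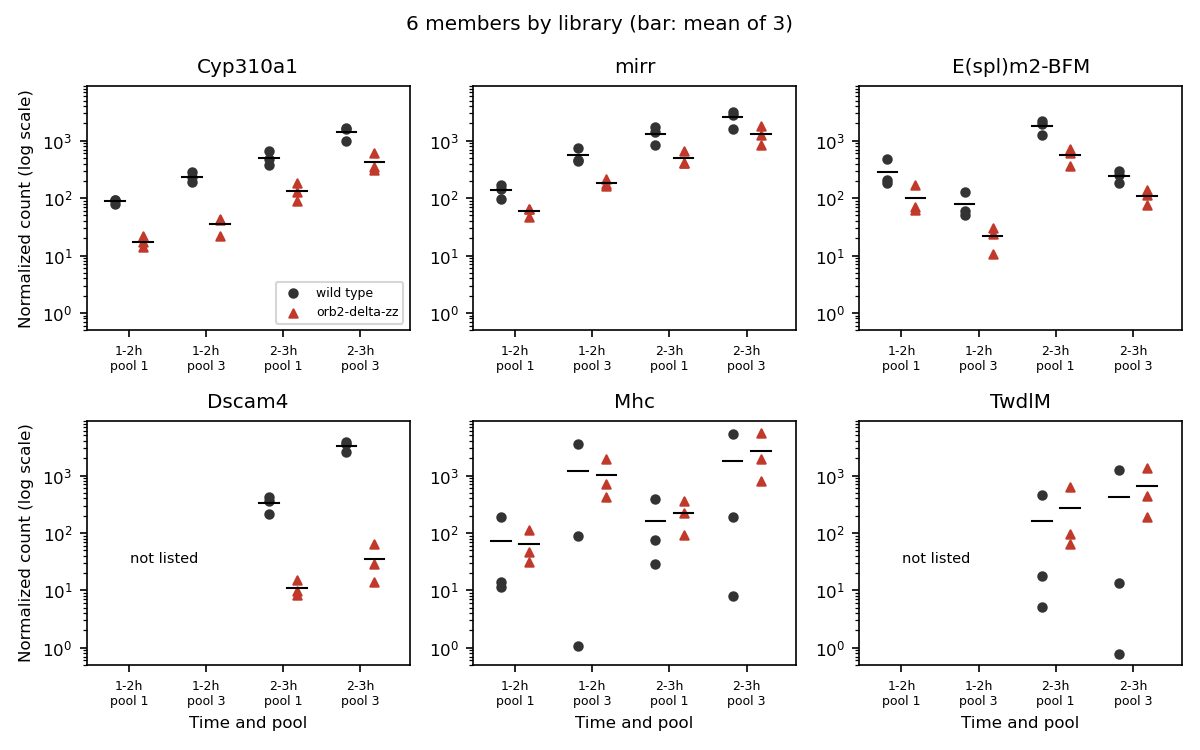
Normalized counts (log scale) of 6 of the genes in every library of 1-2h and 2-3h, by pool, with wild type as circles, orb2-delta-zz as triangles and bars at the mean of 3 libraries. In Cyp310a1 every orb2-delta-zz library lies below every wild-type library of the same time and pool, and in Mhc single libraries lie far above the others of their group.

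Sry-alpha itself was called in pool 1 at 2-3h. It had 4616, 4721 and 4486 normalized counts in wild type and 3436, 2243 and 1851 in orb2-delta-zz, where all 3 libraries were lower, by -0.93 ± 0.22 on the log2 scale (limma adjusted p = 0.013). At 1-2h its differences were -1.04 and -1.01 in pools 1 and 3 and were not called (limma adjusted p = 0.06 and 0.087). The call at 2-3h was lost without wild-type replicate 1 or orb2-delta-zz replicate 2 or 3. Of 14 cellularisation genes tested in pool 1 at 2-3h, 9 were called lower and 0 higher, beside 9.48% and 14.4% of all genes. Without a single gradient 3 to 11 of them were lower. The leucine-rich-repeat gene ltl was called in all 3 tests, at -1.11, -0.71 and -1.40 on the log2 scale (limma adjusted p = 0.016, 0.042 and 0.00076), and its pool 1 call at 1-2h was lost whichever of the 6 gradients was left out. The ecdysone-synthesis gene phtm was called at 1-2h (-1.91 in pool 1 and -1.59 in pool 3, limma adjusted p = 0.0039 and 0.012) and not at 2-3h (-0.79, limma adjusted p = 0.15, or 0.012 with the replicate block). Its pool 3 call was lost without wild-type replicate 1 or 3 or orb2-delta-zz replicate 1. Esp, a predicted sulfate transporter, was called in all 3 tests at -1.48, -1.78 and -1.89 (limma adjusted p = 0.015, 0.0029 and 0.0019); the first was lost without wild-type replicate 1 or 3 or orb2-delta-zz replicate 2.

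A few genes were nearly missing from orb2-delta-zz at 2-3h. Dscam4, an immunoglobulin-superfamily gene of the Dscam family at 3L:8238647-8282398 on the plus strand, had 361, 217 and 419 normalized counts in pool 1 of wild type and 9.67, 15.2 and 8.42 in orb2-delta-zz. That was the lowest log2 difference of the 130 genes, -4.77 ± 0.46 (limma adjusted p = 0.0001). In pool 3, whose wild-type libraries chose the gene, it had 3578, 2558 and 3822 against 14.1, 64.7 and 28.6 normalized counts. The pseudogene CR32010 on chromosome 4 (12640-25054, minus strand) had 228, 126 and 214 against 14.5, 26.1 and 22.6 normalized counts in pool 1, a log2 difference of -3.10 ± 0.32 (limma adjusted p = 0.00014). CG4563 had 151, 93.6 and 153 against 1.58, 5.40 and 24.2, a difference of -4.12 ± 0.65 (limma adjusted p = 0.0016). In none of these 3 genes did the genotypes overlap, each call held whichever gradient was left out, and none of the 3 genes was listed at 1-2h. CG14346 was also called under every left-out gradient and in all 3 tests, with 315, 162 and 272 against 61.5, 48.7 and 58.9 normalized counts in pool 1 at 2-3h (-2.08 ± 0.35, limma adjusted p = 0.0024). Whether the stocks differ in these genes for reasons other than the orb2 allele was not tested.

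All 5 Cpr cuticle-protein genes, both Tweedle genes, both Vajk genes and both mucin genes among the 130 belong to the replicate 2 genes, while all 3 Enhancer of split genes belong to the evenly read set. Other families were split: Obp56a was evenly read and Obp44a a replicate 2 gene, and Jon25Bi was a replicate 2 gene while Jon99Ciii lay in between. Mhc, the muscle myosin heavy chain, had 189, 5250 and 7.93 normalized counts in pool 3 at 2-3h of wild type and 811, 5432 and 1929 in orb2-delta-zz. In pool 1 it had 74.1, 388 and 28.9 against 92.9, 362 and 225 normalized counts, so replicate 2 was the highest library in both genotypes and the ranges overlapped. Its log2 difference in pool 1 was 1.05 ± 1.73 (limma adjusted p = 0.69, or 0.505 with the replicate block). The troponin genes up and TpnC73F, the Tweedle gene TwdlM and the chitin deacetylase gene verm had the same order of replicates in wild type, with replicate 2 the highest.

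TwdlM had 13.4, 1239 and 0.783 normalized counts in pool 3 of wild type and 187, 1368 and 442 in orb2-delta-zz. Col4a1, a collagen IV chain of basement membranes made by blood and fat cells, had 106, 2579 and 7.02 against 508, 2324 and 977 normalized counts. In both genes the 2 low wild-type replicates lay below all 3 orb2-delta-zz libraries, and replicate 2 was similar in the 2 genotypes. Over the set, the median TPM in pool 3 was 8.92, 43.4 and 21.6 in orb2-delta-zz replicates 1, 2 and 3. In orb2-delta-zz replicate 2 was the highest for 51 of the 60 genes in pool 3 and 56 in pool 1. The described log2 difference in pool 3 at 2-3h had a median of 2.54 over this set and -0.97 over the evenly read genes, with no test since wild-type pool 3 chose the genes.

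At 1-2h the high gradients had other numbers in orb2-delta-zz. Wild-type replicate 2 was the highest for all 32 listed replicate 2 genes in both pools. In orb2-delta-zz it was replicate 3 that was the highest, for 29 of 32 genes in pool 1 and 31 of 32 in pool 3. Mhc had 88.0, 3493 and 1.08 normalized counts in pool 3 of wild type and 431, 706 and 1985 in orb2-delta-zz. The evenly read genes showed a smaller form of the same order at 1-2h: replicate 2 was the highest of wild type for 42 of 48 in pool 3, and replicate 3 the highest of orb2-delta-zz for 30 of 48.

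Marker genes of older tissue that are not among the 130 genes had the same high libraries in pool 3 at 2-3h. The summed TPM of listed cuticle and tracheal markers (10 of 22 listed) was 7.53, 105 and 8.22 in wild-type pool 3 at 2-3h and 20.6, 119 and 38.4 in orb2-delta-zz. For gut, fat body and blood markers (11 of 20 listed) it was 15.0, 79.4 and 14.7 against 19.96, 70.8 and 27.6. Muscle markers (9 of 14 listed) summed to 694, 1775 and 673 against 888, 1698 and 1094, and neuronal and glial markers (17 of 19 listed) to 314, 368 and 295 against 259, 330 and 215. In pool 1 at 2-3h replicate 2 was the highest for cuticle (3.12, 13.7 and 3.66 in wild type), and for neurons replicate 3 was (23.1, 25.2 and 33.7). Of these 4 sums in pool 3, wild-type replicates differed most for cuticle and least for neurons. The neuronal sum includes 10 genes already listed at 0-1h, and the muscle sum 7. For the 7 neuronal and glial markers first listed after 0-1h, replicate 2 was the highest wild-type library for 7 in each pool. At 1-2h the cuticle sum in pool 3 was 16.2, 75.4 and 13.7 in wild type and 41.5, 36.6 and 54.6 in orb2-delta-zz. Pool 1 at 1-2h differed, with orb2-delta-zz replicate 3 the lowest of its group for this list, at 15.3 beside 19.1 and 18.2, and wild-type replicate 2 the lowest for gut, fat body and blood, at 3.16 beside 3.49 and 4.38. Several defining markers were not listed at 2-3h, among them Mlc1, Mf, Tm2 and wupA of muscle, Lcp3 and Lcp4 of cuticle, and Lsp2 of fat body. Of 25 markers first listed after 0-1h that did not reach 10 TPM, wild-type replicate 2 was the highest for 23 in each pool and orb2-delta-zz replicate 2 for 20 in each pool. The part of older embryos or of other material in these values was not tested.

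Few of the genes were called lower in pool 3 than in pool 1, and the genes had been chosen for a high level in pool 3. Choosing on wild-type pool 1 instead left 10 genes, with median log2 ratios of -0.88 in orb2-delta-zz at 2-3h and of -0.57 and -1.22 in wild type and orb2-delta-zz at 1-2h. In orb2-delta-zz at 2-3h, 46 of the 130 genes (35.4%) differed between the pools, 39 higher in pool 3 (30%) and 7 lower (5.38%). Of all genes 59.96% were called, 29.9% higher and 30.1% lower, so the share called higher was near that of all genes. The median log2 ratio was 1.06, beside 0.02 over all genes tested. The spread of this test is shared with the wild-type pool 3 libraries that chose the genes, so the choosing values enter it. Pools of the same gradient number deviated together within a genotype, and with the gradient as a block 95 genes were called, 83 higher and 12 lower, against 71.9% of all genes (36.5% higher, 35.4% lower). The level of the ratio depends on the scale: in TPM the median of all genes is 2.144 in this group, and the median of the 130 genes is 2.72. At 2-3h in wild type, where pool 3 chose the genes, the median log2 ratio was 0.58, or 1.00 over the evenly read genes, beside -0.07 over all genes, and no test is given.

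At 1-2h in wild type 42 of 91 genes (46.2%) were called, 41 higher in pool 3 (45.1%) and only E(spl)m2-BFM lower. Of all genes 74.0% were called, 37.0% in each direction. In orb2-delta-zz 37 (40.7%) were called, 35 higher (38.5%) and 2 lower (2.2%), against 74.5% of all genes (36.9% higher, 37.6% lower). The medians were 1.52 and 1.63, beside 0.07 and 0.06 over all genes, where TPM puts the median of all genes at 1.556 and 1.547. With the gradient as a block 64 genes were called in wild type (62 higher, 2 lower) and 76 in orb2-delta-zz (73 higher, 3 lower), against 79.9% and 81.5% of all genes. Without wild-type replicate 2 the orb2-delta-zz count was 60. For the genotype difference of the ratio, limma called 0 of 91 genes, 3 had an unadjusted p under 0.05, 4 were called on log2(TPM + 1), and 0.482% of all genes were called (0.133% higher, 0.350% lower). The median difference of the ratios was 0.03.

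The highest called ratios in orb2-delta-zz at 2-3h were those of CG43163, Cad74A, CG34220, Muc26B and Ppn, between 4.11 and 3.70 on the log2 scale. CG43163 had 288, 204 and 213 normalized counts in orb2-delta-zz pool 1 at 2-3h and 5794, 3917 and 2898 in pool 3. Every pool 3 library was far above every pool 1 library, with a log2 ratio of 4.11 ± 0.33 (limma adjusted p = 3.2e-07), and at 1-2h the wild-type ratio was 4.89 and the orb2-delta-zz ratio 4.32. Cad74A had 191, 170 and 170 against 3821, 2533 and 1761 normalized counts, a log2 ratio of 3.85 ± 0.39 (limma adjusted p = 2.6e-06). Its ratios at 1-2h were 4.34 and 4.50. Of 47 adhesion and epithelial surface genes, 33 were called higher in pool 3 and 0 lower in orb2-delta-zz at 2-3h, with a median log2 ratio of 2.00. Among all genes 29.9% were called higher and 30.1% lower.

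The secreted Netrin NetB, with a log2 ratio of 2.55 ± 0.33 (limma adjusted p = 1.9e-05), the cadherin ds at 2.87 ± 0.32 (limma adjusted p = 5.4e-06) and the extracellular-matrix gene Ppn at 3.70 ± 0.75 (limma adjusted p = 0.00089) were also high in pool 3. For these genes the direction was the same in TPM and with upper-quartile scaling.

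Of the 3 Enhancer of split genes, 2 were called lower in pool 3. E(spl)m2-BFM had 709, 602 and 358 normalized counts in orb2-delta-zz pool 1 at 2-3h and 141, 111 and 74.7 in pool 3. Its log2 ratio was -2.33 ± 0.33 (limma adjusted p = 4.3e-05) and turned to 0.19 in TPM, below the median of 2.144 over all genes on that scale. E(spl)mgamma-HLH had a log2 ratio of -1.38 (limma adjusted p = 0.04), 1.08 in TPM. E(spl)mdelta-HLH, at -1.24 ± 0.50, missed the threshold (limma adjusted p = 0.0501) and passed it with the gradient as a block (limma adjusted p = 0.00021), while at 1-2h its ratios were -0.14 and -0.07. The uncharacterised gene CG14346 had -1.92, 0.32 in TPM. At 1-2h the E(spl)m2-BFM ratio was -1.85 for wild type and -2.14 for orb2-delta-zz (limma adjusted p = 0.0047 and 0.0017). Of the 23 Notch, Enhancer of split and Bearded genes, 13 were called lower in pool 3 and 4 higher in orb2-delta-zz at 2-3h, beside 30.1% and 29.9% of all genes. Their median log2 ratio was -1.23 and turned to 1.06 in TPM.

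The lowest ratio belonged to sisRNA:CR46358, a stable intronic RNA that overlaps CG9775 on the same strand. It had 454, 338 and 216 normalized counts in orb2-delta-zz pool 1 at 2-3h and 19.9, 7.72 and 15.2 in pool 3, a log2 ratio of -4.49 (limma adjusted p = 9e-06), and it was not listed at 1-2h.

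**Figure D5:**
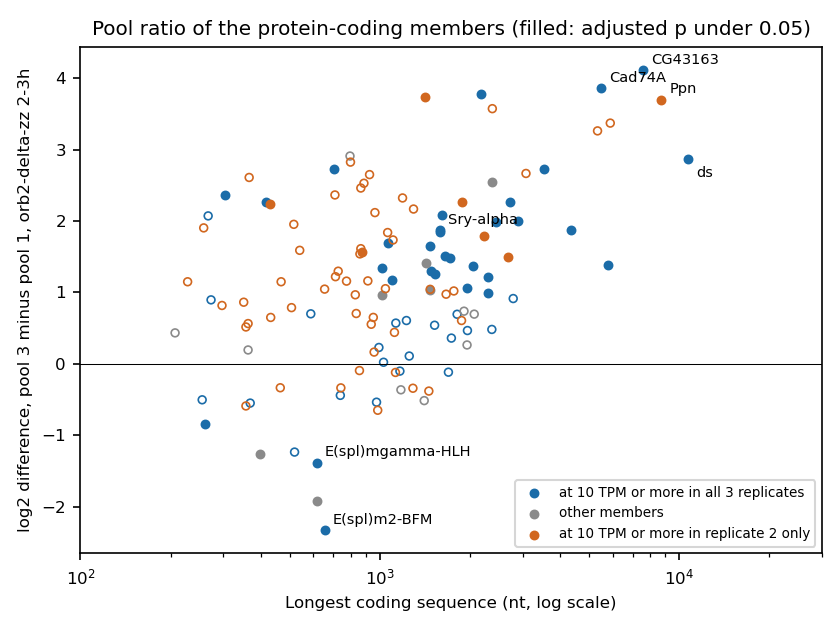
log2 ratio of pool 3 to pool 1 in orb2-delta-zz at 2-3h against the length of the longest coding sequence (nt, log scale) for the protein-coding genes among the 130. Filled points were called at an adjusted p under 0.05. Across the 125 genes Spearman's rho is 0.333, and the genes are not independent replicates.

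The genes with the highest ratios tended to be long. Across the 125 protein-coding genes, Spearman's rho between coding length and the log2 ratio was 0.333, and across the 52 evenly read ones 0.483; these are descriptions over genes that share libraries. Above the median coding length of the evenly read genes the median log2 ratio was 1.5, and below it 0.555.

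As a group the 130 genes were shorter than other listed genes. The median of the longest transcript was 1683 nt and of the coding sequence 1065 nt, beside 2124 nt and 1431 nt for the 9386 protein-coding genes listed at 2-3h. Their median span on the chromosome was 2328 nt, beside 2936 nt. Of the 125 protein-coding genes 24 had a single exon, 19.2%, against 10.5% of listed genes. The shortness came from the replicate 2 genes, with median transcripts of 1235 nt, whereas the evenly read genes had 2145 nt. Of the 128 genes with an annotation, 34 lay on 3L, 31 on 3R, 29 on 2R, 25 on 2L, 8 on X and 1 on chromosome 4. The X chromosome held 6.25% of them, beside 16.8% of the genes listed at 2-3h. Another gene overlapped 8 of the 130 on the same strand, among them Sry-alpha, KP78b and pre-mod(mdg4)-X, and their values are uncertain to that extent.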

How the data were processed

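RNA of embryo gradients was sequenced with a directional kit after rRNA removal, per the labels. The authors trimmed reads with Trim Galore 0.6.5, quantified with Salmon 1.9.1 and normalized with DESeq2 1.42.1, per the submitters' processing notes, which give no genome build. The deposited normalized counts, a signal that need not be whole, are the authors' estimated counts divided by normalization factors set separately at each time, so levels are not compared between times. The deposited TPM values are scaled by transcript length and library size. Since depth in reads is not kept, no counting interval is given.

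Members were found from the TPM tables. Genes averaging 10 or more normalized counts over the libraries of a time entered a limma 3.58.1 fit of log2(normalized count + 1) (R 4.3.3, mean-variance trend) to 4 group means, and p-values, two-sided, were adjusted over all genes tested by Benjamini-Hochberg; an adjusted p under 0.05 is called. Contrasts that use wild-type pool 3 at 2-3h carry no test, as it chose the members. The 2-3h tests that are given still take their spread in part from those libraries, since all 4 groups share it. The procedure was tested on simulated data in which each library varied independently. Those data held neither the shared gradients nor the outlying gradients seen here, so the calls were not checked against them. Tables were read with Python 3.11.15 and pandas 2.3.3, and annotation came from Ensembl release 115. Genes described were drawn from the 20 highest by TPM, the 5 highest and 5 lowest called members of each test with a mean of at least 100, up to 4 members of each list, the 3 nearest the threshold on each side and the 3 highest and 3 lowest of untested contrasts. Not every gene under these rules is described. Those passed over include replicate 2 genes such as CG9184, CG2962 and Osi7, which the pool 1 test at 2-3h did not call. Members and lists were chosen with earlier results of these data known.

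Deviations from group means correlated between the 2 pools of the same number in a genotype at 0.271 to 0.831, and pools were taken to pair by gradient. In wild type the pools of replicates 1 and 3 also correlated across numbers, at 0.615 and 0.3801 at 1-2h and 0.4665 and 0.4262 at 2-3h. For these 2 replicates the correlations alone show the pairing less clearly. Between genotypes, same-numbered pool 1 libraries of 2-3h correlated at 0.622, 0.632 and 0.22, but those of pool 3 at 0.761, 0.742 and -0.01, and those of 1-2h at -0.737 to 0.426. The replicate block of the genotype tests assumes that same-numbered gradients of the genotypes pair. It does not model the gradient that the 2 pools share.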

Additional observations from a re-analysis of the deposited data

How the results depend on the processing

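Of the settings tried, each changed alone, 263 of the values that answer a comparison stayed the same by the rule used (a count within 1.5 times, a median within the replicate spread) and 67 moved; of the values of single genes 459 stayed the same, 53 lost their call and 5 changed sign. The alternatives that choose genes on wild-type pool 3 replicates 1 and 3 or on each of its libraries, and that leave out 2 gradients together, were added after seeing the data. The cause of the changes was not tested. Shares of all genes are not given for most of these settings, so a changed count is not read as a result about the genes.

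With the replicate block, the genotype count in pool 1 at 2-3h rose from 31 to 54. The pool-ratio counts rose from 46 to 95 (orb2-delta-zz, 2-3h), from 42 to 64 (wild type, 1-2h) and from 37 to 76 (orb2-delta-zz, 1-2h). The blocked genotype counts at 1-2h were 19 in pool 1 and 25 in pool 3. Of all genes 12.2% were then called in pool 1 (7.07% higher, 5.14% lower) and 9.07% in pool 3 (3.68% higher, 5.39% lower). Same-numbered libraries of the 2 genotypes correlated there at -0.737 to 0.426, so the data give little ground for that block at 1-2h. On log2(TPM + 1), the 2-3h pool ratio in orb2-delta-zz had 107 calls and a median of 2.72, in wild type a median of 2.25; at 1-2h the pool 1 genotype count was 3, the orb2-delta-zz ratio count 63, and the difference of ratios had 4 calls and a median of -0.38. In TPM the sign changed for the 2-3h orb2-delta-zz ratios of E(spl)m2-BFM (0.19), E(spl)mgamma-HLH (1.08), CG14346 (0.32) and Orcokinin (0.93), and for the 1-2h ratio of E(spl)mgamma-HLH (0.44). Upper-quartile scaling gave median ratios of 0.62 and 0.12 at 2-3h (orb2-delta-zz, wild type) and of 1.26 and 1.07 at 1-2h. For the 1-2h orb2-delta-zz ratio, a pseudocount of 5 gave a median of 1.32, and fitting only the libraries compared, or leaving out both gradients that stood apart, gave 57 calls.

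Choosing genes at 5 TPM gave 63 genotype calls in pool 1 at 2-3h, 85 ratio calls with a median of 0.84 there, a median ratio of 1.13 in wild type at 1-2h, and 58 calls with a median of 1.25 in orb2-delta-zz at 1-2h. At 20 TPM the 2-3h values were 14 calls, and 18 with a median of 1.21, and both 1-2h ratio counts were 21. Choosing on orb2-delta-zz pool 3 gave 14 genotype calls with a median of 0.35 and 30 ratio calls at 2-3h, a median of 1.30 in pool 3 at 2-3h, and 0.31 for the difference of ratios at 1-2h. Choosing on wild-type pool 1, which left 10 genes, gave 3 genotype calls and 6 ratio calls with a median of -0.88 at 2-3h, medians of 0.18 (pool 3 genotype) and -1.48 (wild-type ratio), and at 1-2h 0 and 2 genotype calls and 3 and 4 ratio calls with medians of -0.57 and -1.22. Choosing on wild-type pool 3 replicates 1 and 3 gave genotype medians of -0.95 and -0.91 in pools 1 and 3 at 2-3h and a ratio median of 1.35 in orb2-delta-zz at 1-2h; choosing on each library gave -0.95 and -0.97, and 1.18 for the 2-3h ratio.

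Without each gradient in turn, the 2-3h genotype count in pool 1 ran from 9 to 71 with medians of -0.63 to -0.28, and the pool 3 median from -0.45 to -0.042. The 1-2h genotype counts, lower and higher calls together, ran from 8 to 16 (medians -1.09 to -0.26) and from 8 to 33 (-1.26 to -0.55). The ratio counts ran from 35 to 69 (medians 0.99 to 1.23) in orb2-delta-zz at 2-3h, from 32 to 44 (1.38 to 1.68) in wild type and from 30 to 60 (1.47 to 1.63) in orb2-delta-zz at 1-2h; the wild-type median at 2-3h ran from 0.29 to 0.77. The difference of ratios at 1-2h had 0 to 0 calls with medians of -0.04 to 0.05, and at 2-3h medians of 0.22 to 0.44.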
